A study of Arabidopsis thaliana with 12 samples.

Results

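Nuclear-encoded proteins of the plastid ribosome were followed through 5 genes, 3 for the large subunit and 2 for the small subunit, in Arabidopsis plants given the herbicide bromoxynil or water. The genes were taken by locus: AT3G54210 (protein L17), AT4G01310 (L5) and AT1G29070 (L34) of the large subunit, and AT3G13120 (S10) and AT1G64510 (S6) of the small subunit. Each was read by 1 probe whose platform annotation in GEO gives that gene alone, out of 692 probes with 1 gene and 3439 probes in all. These 5 genes were picked with earlier results of the same arrays known.

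Total RNA came from wild-type plants of ecotype Landsberg. The plants spent 12 h in darkness and were sampled 30 min after return to light, with water in the control group and 500 µM bromoxynil in the treated group. There were 6 arrays of each group. The labels give neither the tissue nor the age of the plants. They also do not tell whether each array had its own plants, so the spread behind each p-value may be technical. All 4 green-tissue transcripts examined (LHB1B2, PRK, SBPASE and PSAN, which serve light harvesting, the Calvin cycle and photosystem I) lay above 0 on all 12 arrays. Only 3.1% to 4.6% of all probes were at 0 on an array, so this does not tell the tissue.

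Plastids carry a ribosome of the bacterial type that makes the photosystem subunits and the large subunit of Rubisco encoded in plastid DNA. Its RNAs and some of its proteins are encoded in the plastid, while most of its proteins are made in the cytosol from nuclear genes and imported. Bromoxynil binds at the plastoquinone site of photosystem II and stops electron flow from there.

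The deposited values are relative intensities on a linear scale, with the brightest feature at 100 on every array. The array medians ran from 0.443 to 0.491 with water and from 0.624 to 0.654 with bromoxynil, a shift of 0.46 on the log2 scale. Log2 changes and their tests below therefore come from quantile-normalised values, in which all arrays have the same distribution. They are relative to that distribution and not to an absolute amount of RNA, and fewer expressing cells and less RNA per cell cannot be told apart. Different probes bind with different strength, so the level of 1 gene is not compared with that of another.

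With bromoxynil, L17, S10 and S6 fell and L5 and L34 rose, so the direction did not follow the subunit. All 5 members passed limma's test at an adjusted p under 0.05, but so did 54.4% of all 3439 probes. The 2 rises stand beside 24.5% of probes called higher, and the 3 falls beside 29.9% called lower. The median log2 change was -0.76 over the 5 members and -0.04 over all probes. With 2 rises and 3 falls, the members' median is the value of S6 and not a shift common to the 5. The median size of the change, regardless of direction, was 0.76 for the members and 0.62 for all probes.

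Scaling moved the balance of directions over the whole array. Higher calls made up 45.1% of all calls on quantile-normalised values, 67.0% on the deposited values and 37.7% when array medians were set equal. Each of the 5 members kept its direction under all 3 scalings.

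L17, which in bacteria lies near the exit of the tunnel for the growing peptide, fell. Its deposited intensity ranged from 1.26 to 1.68 with water (median 1.49) and from 0.730 to 0.885 with bromoxynil (median 0.798). Every bromoxynil array lay below every water array. The log2 change was -1.16 ± 0.09 (SE, n = 6 per group; limma adjusted p = 9.7e-07), a 2.24-fold fall. By size of change in either direction it ranked 135 among the 692 probes with 1 gene. In rank terms, the probe went from percentile 90.4 ± 2.0 of its array with water to 61.7 ± 4.0 with bromoxynil (SD, n = 6).

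L5, which in bacteria holds the small ribosomal RNA of the large subunit in place, moved the other way. Its deposited intensity ranged from 0.292 to 0.455 with water (median 0.338) and from 0.600 to 0.878 with bromoxynil (median 0.721). The groups did not overlap on the deposited values, though they did after quantile normalisation. The log2 change was 0.63 ± 0.15 (SE, n = 6 per group; limma adjusted p = 0.0034), or 1.55-fold, and 1.06 on the deposited values. Its percentile within the array rose from 35.3 ± 9.2 to 56.6 ± 7.8 (SD, n = 6). Array 3 had the lowest L5 intensity of its group in both groups.

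L34, a short basic protein of the large subunit, rose, with a call that depended on the processing. Its deposited intensity ranged from 0.133 to 0.258 with water (median 0.183) and from 0.247 to 0.393 with bromoxynil (median 0.362). The groups overlapped, since bromoxynil array 6 at 0.247 lay below water array 2 at 0.258. Bromoxynil was nevertheless higher than water in all 6 pairs of arrays with the same number. The log2 change was 0.66 ± 0.23 (SE, n = 6 per group), with a limma adjusted p of 0.029. The call was lost, with an adjusted p of 0.066, when arrays were centred on their medians (log2 0.46). It was also lost in 7 of the 12 fits that left out 1 array, where the change ran from 0.53 to 0.80 and the adjusted p (limma) from 0.0088 to 0.062. The 7 arrays whose loss ended the call were water arrays 3, 4 and 6 and bromoxynil arrays 1, 2, 3 and 5.

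S10, which in bacteria sits in the head of the small subunit, fell. Its deposited intensity ranged from 0.288 to 0.518 with water (median 0.436) and from 0.220 to 0.342 with bromoxynil (median 0.279). The groups overlapped through water array 1 only, which at 0.288 lay below bromoxynil arrays 1, 2 and 3. Number 1 was also the one pair in which bromoxynil was higher, by 0.25 on the deposited log2 scale, against 5 pairs in which it was lower. After quantile normalisation bromoxynil was lower in all 6 pairs and the groups no longer overlapped. The log2 change was -0.97 ± 0.14 (SE, n = 6 per group; limma adjusted p = 1.3e-04), and -0.60 on the deposited values.

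S6, which in bacteria binds the platform of the small subunit together with S18, also fell. Its deposited intensity ranged from 0.255 to 0.370 with water (median 0.307) and from 0.163 to 0.286 with bromoxynil (median 0.252). Bromoxynil was lower in all 6 same-number pairs, but the groups overlapped on the deposited scale. Arrays 5 and 6 gave the 2 lowest S6 values in each group. The log2 change was -0.76 ± 0.15 (SE, n = 6 per group; limma adjusted p = 0.0013), and -0.42 on the deposited values.

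**Figure D1:**
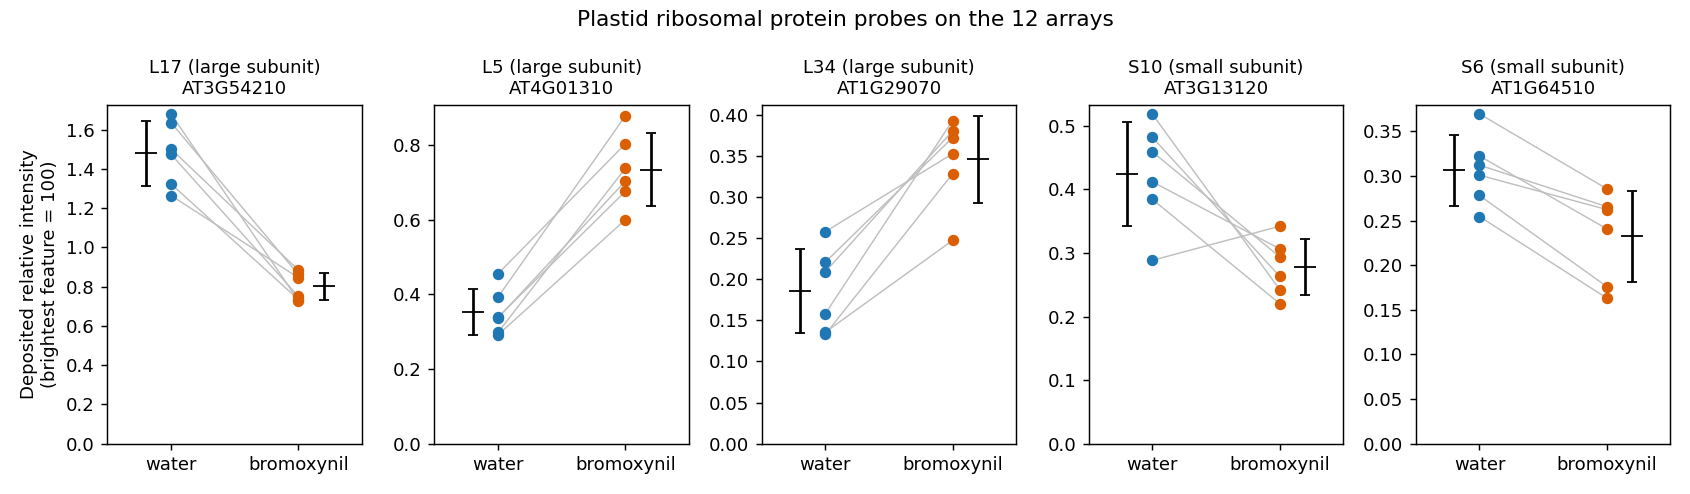
Deposited relative intensity (linear axis from 0, brightest feature = 100) of the 5 probes on 6 water and 6 bromoxynil arrays. Grey lines join arrays of the same number, and black bars give the mean and SD. L17 separates downward and L5 upward with no overlap, while the groups of L34, S10 and S6 overlap.

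On the deposited scale the groups did not overlap for 2 of 5 members, against 38.5% of all probes, and on the quantile-normalised scale for 3 of 5, against 36.5%. L34 and S6 lay at percentiles 15.4 and 18.3 of mean intensity, within the dimmest 25% of probes, and S10 lay just outside that bound at percentile 26.6. Between water arrays the SD was 27.5% of the mean for L34, 19.3% for S10, 17.6% for L5, 12.9% for S6 and 11.1% for L17.

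The ratio of 2 members on the same array does not change with a factor common to all probes of that array, so it was taken from the deposited values. It does change with an amount added to all values. The 5 members give 10 ratios. They are described without a p, because the members were picked with results known. The groups did not overlap for 6 of the 10 ratios, whereas 29.4% of the 239086 ratios between any 2 probes with 1 gene did not overlap. The median size of the change of a ratio was 1.42 for the 10 ratios and 0.89 for all of them, on the log2 scale. The 10 ratios share 5 probes and are not independent.

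The 6 ratios that separated were those of L17, S10 or S6, which fell, with L5 or L34, which rose. Their separation largely restates the changes of the single members and is not a result of its own. All 5 members were called, against 54.4% of all probes, so the share over all ratios is not a like comparison. The ratio of L17 to L5, both of the large subunit, ranged from 3.37 to 4.94 with water (median 4.38) and from 0.837 to 1.41 with bromoxynil (median 1.12). Its log2 mean went from 2.08 ± 0.22 to 0.13 ± 0.30 (SD, n = 6), a change of -1.95, the largest of the 10 on the deposited values. On quantile-normalised values that of L17 to L34 was larger (-1.83 against -1.80), and after the place adjustment given further on those of L5 to S10 and L5 to S6 were. The ratio of L17 to L34 had a median of 7.92 with water and of 2.21 with bromoxynil, with no overlap and a log2 change of -1.81. Thus L17 did not keep a common ratio with L5 or L34 of its own subunit on the deposited values. After the place adjustment the groups of L17 to L34 overlapped. The ratios of L5 to L34 and of S10 to S6 overlapped on the deposited values.

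Large and small subunit members parted in 4 of their 6 ratios. The ratio of L5 to S10 ranged from 0.635 to 1.17 with water and from 2.04 to 3.62 with bromoxynil, a log2 change of 1.66. The log2 ratio of L5 to S6 changed by 1.48, that of L34 to S10 by 1.53 and that of L34 to S6 by 1.35. All 4 were higher with bromoxynil in each of the 6 same-number pairs.

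The other 4 ratios overlapped between the groups. The ratio of L17 to S10 had a log2 mean of 1.82 ± 0.43 with water and 1.54 ± 0.21 with bromoxynil (SD, n = 6), and was higher with bromoxynil in 3 of 6 pairs. The ratio of L17 to S6 went from 2.27 ± 0.17 to 1.81 ± 0.29 and was lower in all 6 pairs. Its change was 1.92 times the SD between arrays of a group, pooled over the groups. Its groups did not overlap with a pseudocount of 0.1, with arrays of consecutive number averaged, or without water array 3. The ratio of S10 to S6, the only one within the small subunit, went from 0.45 ± 0.40 to 0.28 ± 0.20. The ratio of L5 to L34 went from 0.95 ± 0.24 to 1.09 ± 0.33. For L17 to S10, S10 to S6 and L5 to L34 the change was smaller than the SD between arrays of a group, pooled over the groups. This says that the ratios were not seen to move beyond that spread, not that they were constant.

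**Figure D2:**
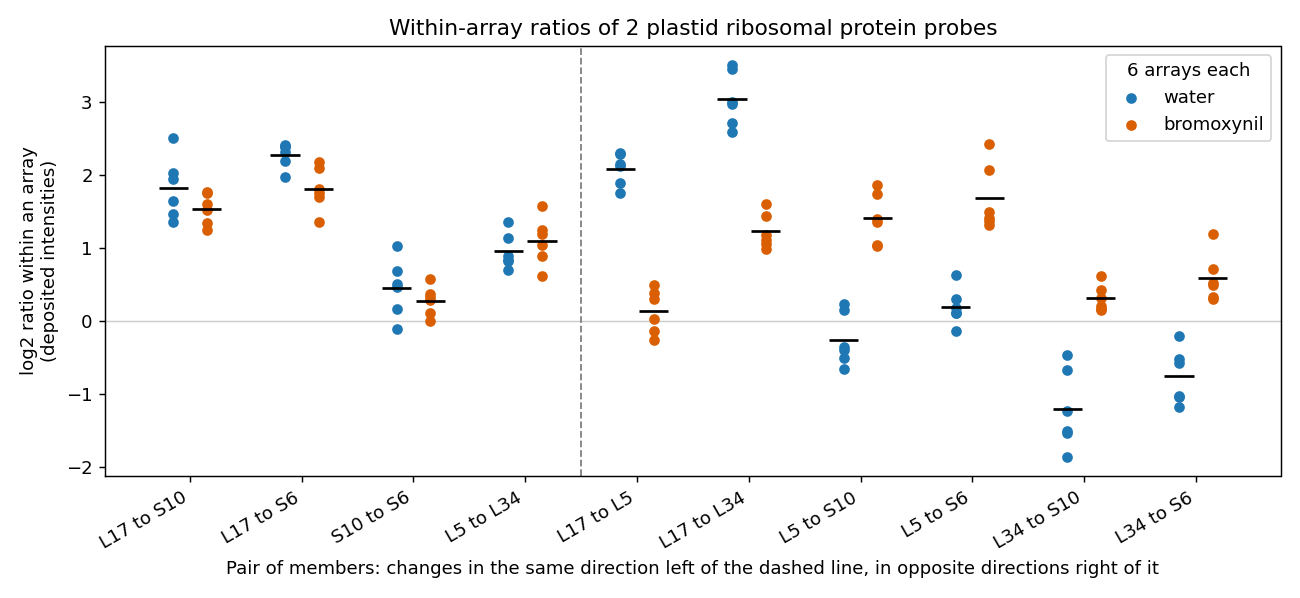
Log2 ratio of 2 members within an array, from deposited intensities, for all 10 pairs; each point is 1 array and bars are group means of 6 arrays. Pairs with changes in the same direction, left of the dashed line, overlap between water and bromoxynil, and pairs with opposite changes, right of it, do not.

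Averaged by subunit, large minus small members gave 0.34 ± 0.27 with water and 1.22 ± 0.25 with bromoxynil (SD, n = 6, deposited log2 scale). Only the change between the groups is read, since different probes bind with different strength. The values per array ran from 0.01 to 0.70 with water and from 0.998 to 1.64 with bromoxynil. The groups did not overlap, and the difference was higher with bromoxynil by 0.88, in 6 of 6 same-number pairs. It depended on which large subunit genes were counted. Without L5 the shift was 0.53 and the groups overlapped. Without L17 it was 1.51. The log2 ratios of L17 alone to S10 and to S6 changed by -0.28 and -0.46, with overlap in both, and by 0.74 and 0.30 after the place adjustment.

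**Figure D3:**
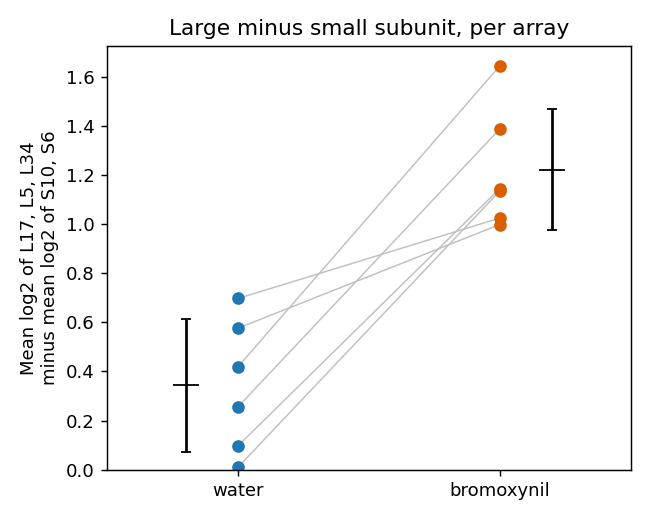
Mean log2 deposited intensity of L17, L5 and L34 minus that of S10 and S6 on each array. Grey lines join arrays of the same number, and bars give the mean and SD of 6 arrays. The water arrays reach 0.70 and the bromoxynil arrays start at 0.998.

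The values of a probe also moved with its number on the array. A regular period in the probe numbers was inferred from the values of the water arrays alone and not taken from an array layout. The correlation at the chosen period was 0.28, so the place of a probe is uncertain. Probes near the same place in that inferred repeat were taken as neighbours. All values after the place adjustment depend on this inference. Over the probes within 6 places of L17, the median log2 change was -0.56, in the direction of L17 itself. Near L34 it was 0.47, again in the member's direction. Near L5 it was -0.50 and near S10 it was 0.56, both against the direction of the member, and near S6 it was 0.13, against the fall of S6.

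After each array was adjusted for place, L17 had a log2 change of -0.68 ± 0.11 (SE; limma adjusted p = 4.7e-04), then the smallest of the 3 falls. The change of L5 grew to 1.15 and that of S10 to -1.42, and S6 was at -0.97, all past the threshold. L34 was at 0.20 ± 0.23, with a limma adjusted p of 0.49. It was higher with bromoxynil in 3 of 6 pairs, and its groups overlapped. Of all probes, 47.4% passed the test after this adjustment. L17, L5, S10 and S6 did not overlap between the groups there.

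**Figure D4:**
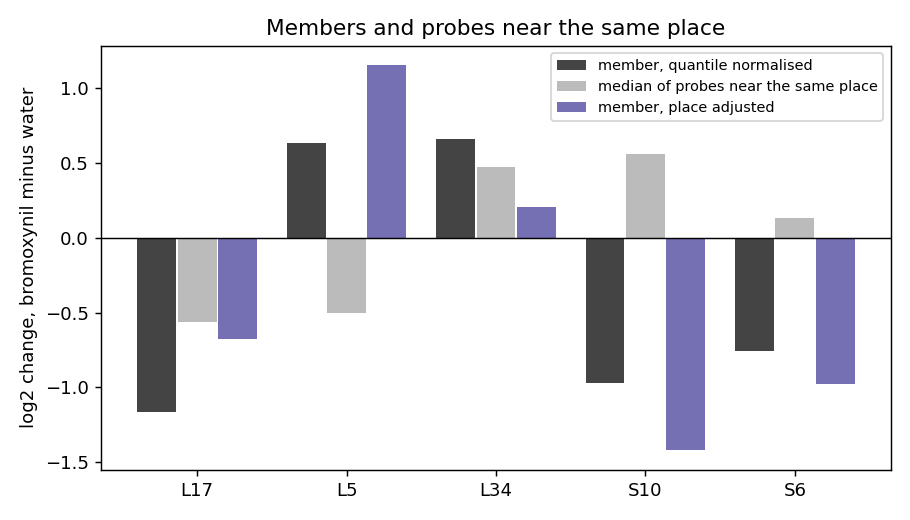
Log2 change, bromoxynil minus water, of each member before and after adjustment for place, and of the median of probes within 6 places of it. The median near L17 and L34 has the sign of the member, and that near L5, S10 and S6 the opposite sign. A column step is part of the adjustment, so the bars need not add up.

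The place adjustment also changed which ratios separated. Again 6 of 10 did not overlap, against 25% of ratios between any 2 probes with 1 gene. The members were picked with results known, so these shares are again not a like comparison. The log2 ratio of L17 to S10 then changed by 0.74, where it had changed by -0.28, and its groups no longer overlapped. That of L17 to S6 changed by 0.30. That of L17 to L34 fell to a change of -0.88 with overlap. The ratio of L17 to L5 and those of L5 and L34 to the small subunit members separated in both versions. After the adjustment their log2 changes were -1.83 for L17 to L5, 2.58 for L5 to S10, 2.13 for L5 to S6, 1.63 for L34 to S10 and 1.18 for L34 to S6. The shift of the large against the small subunit was 1.42 there.

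**Figure D5:**
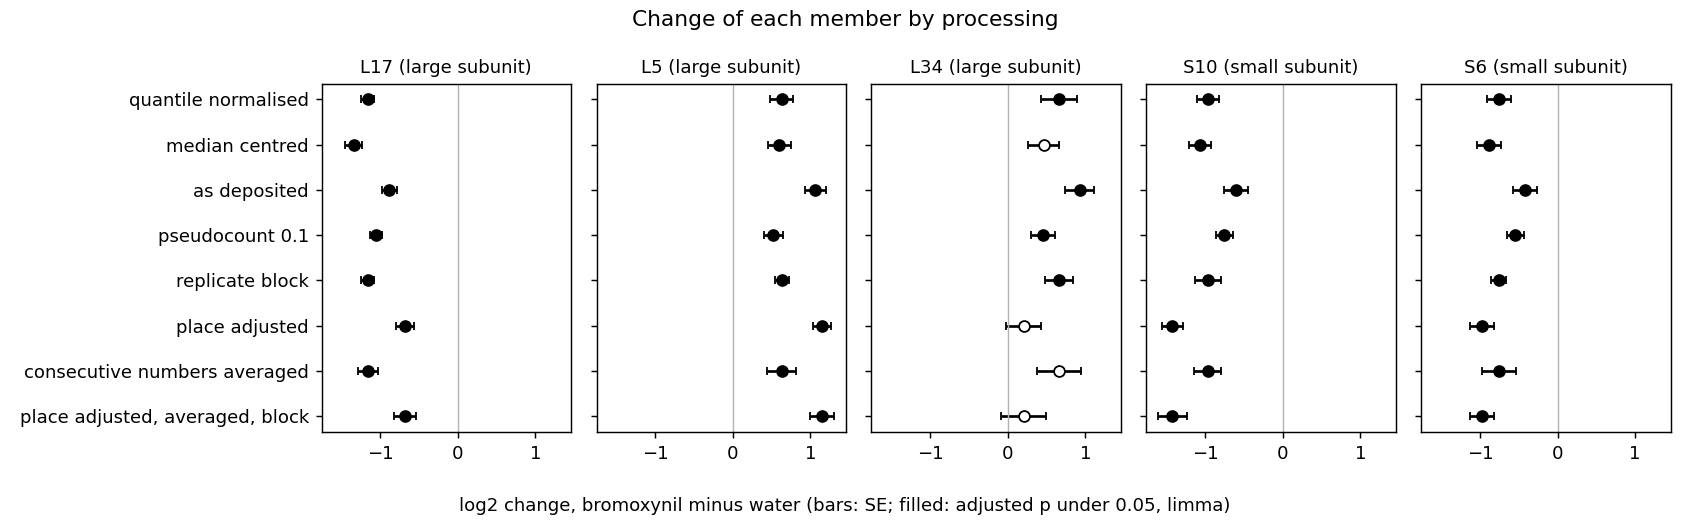
Log2 change of each member (bars: SE) under 8 ways of processing; filled points have a limma adjusted p under 0.05. L17, L5, S10 and S6 stay filled and on 1 side of 0 in all 8, and L34 is open in 4.

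Few other plastid ribosomal genes were measured by a probe of their own. Of 41 listed nuclear loci for plastid ribosomal proteins, 6 had a probe with 1 gene, 4 of 27 for the large and 2 of 14 for the small subunit. The sixth, AT5G65220 (L29, which in bacteria lies at the tunnel exit), had an intensity above 0 on just 1 array per group, number 4 in both, and is left without a fold. Of 9 listed plastid translation factors and 15 listed genes of plastid transcription, 0 had a probe with 1 gene.

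The profiles most like each member were sought among probes with 1 gene above the dimmest 25%, as the smallest root mean square difference over the 12 arrays of quantile-normalised log2 values, each probe centred on its own mean. The profile closest to L17 was that of AT1G54500, a rubredoxin-like protein, at 0.11, followed by AT3G09050 at 0.12 and AT2G37510 at 0.17. For L5 it was AT1G30700 at 0.15, followed by PSBW (AT2G30570), a small photosystem II subunit, also at 0.15, and AT4G38670 at 0.20. For L34 the closest were AT5G43770 at 0.25, AT5G11550 at 0.28 and AT4G39690 at 0.29. For S10 they were AT3G47100 at 0.19, AT1G72640 at 0.23 and AT4G38990 at 0.24, and for S6 AT1G72640 at 0.15, AT1G44830 at 0.18 and AT4G07670 at 0.19. AT1G72640 was near both small subunit genes.

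L5 and L34 differed by 0.30, which placed L5 at position 6 of 499 candidates for L34, and L34 at position 19 for L5. S10 differed by 0.31 from both L17 and S6, at positions 16 and 18 for S10. The other way, S10 stood at position 56 for L17 and at 52 for S6. L17 and S6 differed by 0.30, with S6 at position 52 for L17 and L17 at 42 for S6. L34 and S6 are too dim to be candidates, so their positions are where they would stand. The treatment, the array number and the inferred place of a probe all enter these values.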

How the data were processed

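The files held 1 table of 12 arrays. Its deposited values are intensities, linear and relative to the brightest feature; scanning, background correction and averaging of spots are not given in the sources used here. A zero took the lowest positive value on its array before log2 and quantile normalisation. All 3439 probes were fitted in R 4.3.3 with limma 3.58.1 (two-sided moderated test), and p-values were adjusted by Benjamini-Hochberg and called under 0.05. Fold changes are 2 to the power of the log2 change. Of 692 probes with 1 gene, 690 were matched to loci of the TAIR10.1 table, and the members, listed genes and markers were found by locus. The sources used here carry no gene descriptions. Protein names came from general knowledge, and the list of plastid loci was written by hand.

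The members, gene lists and alternatives were chosen with earlier results of these data known. Genes named are the members, the listed plastid genes with a probe of their own, the 3 closest profiles for each member, and 4 green-tissue markers.

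Water and bromoxynil arrays of the same number deviated alike in all 6 pairs, so the numbers were taken to pair the arrays. The correlations were 0.323 to 0.418 across all probes and 0.450 to 0.530 across probes above the dimmest 25%. The labels do not say what a number shares. The place adjustment subtracts a running median over places (6 to each side) in the inferred repeat, then that of each of 12 columns. The fits were tested on simulated data with noise drawn independently for each array. That simulation leaves out the likeness of same-number arrays, so it cannot tell how the fits behave with it. The number of arrays limits the precision. Plots used Python 3.11.15 and matplotlib 3.10.9.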

Additional observations from a re-analysis of the deposited data

Results flagged for a closer look

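Of 32 groups of 6 arrays examined (each member, each ratio and the subunit difference, in water and in bromoxynil), 0 had 1 array far from the others, where chance gives about 5% of groups.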

How the results depend on the processing

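L17, L5, S10 and S6 kept their direction and an adjusted p under 0.05 (limma) in every alternative in which they were tested, and S6 and L34 were not tested without the dimmest 25% of probes. Leaving out 1 array gave log2 changes of -1.20 to -1.13 for L17, 0.56 to 0.72 for L5, 0.53 to 0.80 for L34, -1.07 to -0.90 for S10 and -0.82 to -0.66 for S6. L34 did not pass with median centring (0.46), with the place adjustment, alone, with the replicate block or with averaging and block (0.20 in each), or with consecutive numbers averaged (0.66). The closest calls of the others were L5 and S6 with consecutive numbers averaged (adjusted p, limma, of 0.047 for each) and S6 on deposited values (0.038). The replicate block changed no call of the 5 members and called 2055 probes, against 1872 without it. Averaging consecutive numbers (1 and 2, 3 and 4, 5 and 6) called 1230, and averaging with place adjustment and block called 956. The averaged fits apply if such arrays repeat 1 sample, which the labels do not tell. In that case n = 6 per group overstates the replication. The large against small subunit shift of 0.88 became 1.42 with the place adjustment and 0.62 with a pseudocount, and ran from 0.79 to 0.95 without 1 array. In the alternatives run for ratios (quantile normalisation, pseudocount, place adjustment, averaging, block and 1 array left out) 6 or 7 of 10 did not overlap. Where it was 7, L17 to S6 was added. The separated ratios with L34 shrank with a pseudocount of 0.1. Their log2 changes were then -1.46 for L17 to L34, 1.11 for L34 to S10 and 0.95 for L34 to S6. They were not the same ratios after the place adjustment, where L17 to L34 overlapped and L17 to S10 did not. The replicate block left each ratio change as it was, since the mean of the same-number differences is the same value, and the shift of 0.88 held in 6 of 6 pairs. The cause of these differences was not tested. No signal over background was used, so the limits of the dim probes L34 and S6 are unknown.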
